A study of Mus musculus with 2 samples.

Results

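Otos, Coch, Otor, Ucma, Apod, Dcn, Lum and Mgp, 8 of the 32285 genes counted, encode proteins that fibrocytes and other connective tissue cells of the inner ear release into the space around them. They were found by symbol, and the list was chosen by their levels over cell groups and their ratios between these same libraries, so those values are a description and carry no test. Cochleae of wild-type CBA/CaJ mice aged 4 to 6 weeks were dissociated for single-cell RNA sequencing, in which a UMI (unique molecular identifier) tags each mRNA copy that was caught. In the AAV-Isl1 plus noise group the ear was first given an adeno-associated virus with the LIM homeodomain factor gene Isl1 and then exposed to noise of 105 dB between 1 and 20 kHz for 2 h. The noise-only group was the untreated opposite ears of the same animals, exposed to the same noise, and all tissue was taken 2 days after the noise. Per the labels each group was 5 mice pooled into 1 library, so no difference could be tested against the spread between mice, and treatment cannot be told apart from the ear, the dissection or the capture. The promoter, serotype and target cells of the vector are not given in the sources used here.

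The spiral ligament holds the lateral wall of the cochlea to the bone, and its fibrocytes both build this matrix and return potassium to the stria vascularis. Cochlin, the product of Coch, is among the most abundant proteins of the inner ear and is altered in a hereditary human deafness, while otospiralin (Otos) and otoraplin (Otor) are small secreted proteins known mainly from the ear. Ucma and Mgp encode vitamin K-dependent Gla proteins that restrain mineral deposits, Apod encodes a lipid-binding lipocalin, and decorin (Dcn) and lumican (Lum) are leucine-rich proteoglycans that bind collagen fibrils.

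All 8 are protein-coding genes. In GRCm38, Dcn (chr10:97479609-97518143) and Lum (chr10:97565128-97572703) lie 46984 bases apart on the plus strand of chromosome 10, and Otor (chr2:143078473-143081713, plus strand) and Ucma (chr2:4976122-4985748, plus strand) lie far apart on chromosome 2. Otos (chr1:92644218-92648841, minus strand), Coch (chr12:51593341-51605771, plus strand), Apod (chr16:31296192-31314808, minus strand) and Mgp (chr6:136872435-136875823, minus strand) are on chromosomes of their own. RefSeq promoter sequences (GRCm38.p6) were at hand for 5 of the 8. The 250 bases before the RefSeq start are shown for Otos and Ucma, the members with the largest excess in the AAV-Isl1 library, and for Otor, the member with the largest deficit; capitals mark TATAAA or CCAAT.
Otos, chr1:92648842-92649091, minus strand: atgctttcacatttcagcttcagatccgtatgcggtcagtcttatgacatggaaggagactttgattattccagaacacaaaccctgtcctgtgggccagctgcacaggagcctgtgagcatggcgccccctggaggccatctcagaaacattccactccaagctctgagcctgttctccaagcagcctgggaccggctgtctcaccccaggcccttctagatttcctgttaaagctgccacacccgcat
Ucma, chr2:4975872-4976121, plus strand: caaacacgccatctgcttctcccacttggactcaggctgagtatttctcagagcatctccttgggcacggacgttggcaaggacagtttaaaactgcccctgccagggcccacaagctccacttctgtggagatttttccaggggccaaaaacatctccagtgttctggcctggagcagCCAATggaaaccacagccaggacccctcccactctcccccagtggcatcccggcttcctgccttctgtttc
Otor, chr2:143078143-143078392, plus strand: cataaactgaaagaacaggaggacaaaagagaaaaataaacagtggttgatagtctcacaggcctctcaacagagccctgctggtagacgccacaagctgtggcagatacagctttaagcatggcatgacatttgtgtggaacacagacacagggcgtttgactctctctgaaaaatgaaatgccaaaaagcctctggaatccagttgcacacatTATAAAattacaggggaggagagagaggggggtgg
Searched on both strands, TATAAA occurred once among the 5 promoters, 35 bases before the start of Otor, and 12.4% of all 32851 promoters of that length hold it. CCAAT occurred once, 71 bases before the start of Ucma, against 33.9% of all promoters. ACAAAG, the core of SOX sites, occurred 84 bases before the start of Apod (16.5% of all promoters), and the octamer ATGCAAAT was in none of the 5 (1.60% of all). The Otos and Coch promoters held none of the motifs searched.

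There were 40268563 UMIs over 24209 barcodes for AAV-Isl1 plus noise and 38330528 UMIs over 21068 barcodes for noise only. The labels give about 1600 cells loaded for a target of 1000, so the number of barcodes is far above the cells loaded, and kept barcodes are called cells with that limit. The libraries share 145 barcodes (0.599% of the AAV-Isl1 and 0.688% of the noise-only barcodes). After filtering, 21736 AAV-Isl1 cells (median 1086 UMIs) and 18757 noise-only cells (median 1048 UMIs) remained in 26 clusters, which were made without the 8 genes. The tissue label is sensory epithelium, but the cluster with hair cell markers held 322 AAV-Isl1 and 93 noise-only cells. Connective tissue markers (fibrocyte, osteoblast, chondrocyte and meningeal fibroblast lists joined) led in 6 clusters with 5637 AAV-Isl1 cells (25.9%) and 4646 noise-only cells (24.8%). Levels are given as CPM, UMIs of the gene per 1000000 UMIs of the cells named, each ratio sets AAV-Isl1 plus noise on top and noise only below, and brackets give 95% intervals that cover counting error only.

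Over all kept cells, Otos and Ucma were higher in the AAV-Isl1 library, Otor was lower, and the other 5 genes lay within 1.5-fold. Otos stood at 423 CPM in AAV-Isl1 cells and 228 CPM in noise-only cells, a ratio of 1.86 (1.81 to 1.91). Ucma stood at 56.9 CPM in AAV-Isl1 cells and 23.6 CPM in noise-only cells, 2.41-fold (2.22 to 2.61). Otor stood at 71.6 CPM in AAV-Isl1 cells and 144 CPM in noise-only cells, 0.498-fold (0.475 to 0.522). These 3 intervals exclude 1, but with 1 library a group the spread between ears is unknown. With the erythroid-like level subtracted, the Otos ratio was 1.49, under the 1.5-fold used for calls, and 1.72 when the 5 erythroid-like cells with the most Otos UMIs in each library were left out of that level. Coch, next to Apod in abundance, had 1234 CPM in AAV-Isl1 cells and 1561 CPM in noise-only cells (0.791-fold, 0.781 to 0.801). Apod had 2231 CPM in AAV-Isl1 and 1926 CPM in noise-only cells (1.16-fold), Dcn 595 CPM in AAV-Isl1 and 544 CPM in noise-only cells (1.09-fold), Lum 56.2 CPM in AAV-Isl1 and 62.1 CPM in noise-only cells (0.904-fold) and Mgp 523 CPM in AAV-Isl1 and 509 CPM in noise-only cells (1.03-fold). Thus 2 of 8 members were at least 1.5-fold higher and 1 of 8 was lower, where 5.81% of 15600 genes with at least 50 UMIs were higher and 2.46% were lower. The median log2 ratio of the 8 members was 0.08, against -0.02 over all those genes. Of the 8 members, Otos and Ucma had the largest shares of their UMIs in a few cells. The 5 cells with the most Otos UMIs held 11.2% of Otos UMIs in AAV-Isl1 and 12.1% in noise-only cells, and for Ucma the top 5 held 8.62% and 9.56%.

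Most UMIs of each gene lay in connective tissue cells, from 68.3% (Mgp) to 83.0% (Otor) in the AAV-Isl1 library and from 64.3% (Mgp) to 92.4% (Otor) in the noise-only library. Splitting the 6 connective tissue clusters into 17 subgroups, again without the 8 genes, gave each gene its own pattern, shown in the plot of levels by subgroup. Subgroups are called by their leading gene, the gene with the highest fold over the other connective tissue cells.

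**Figure D1:**
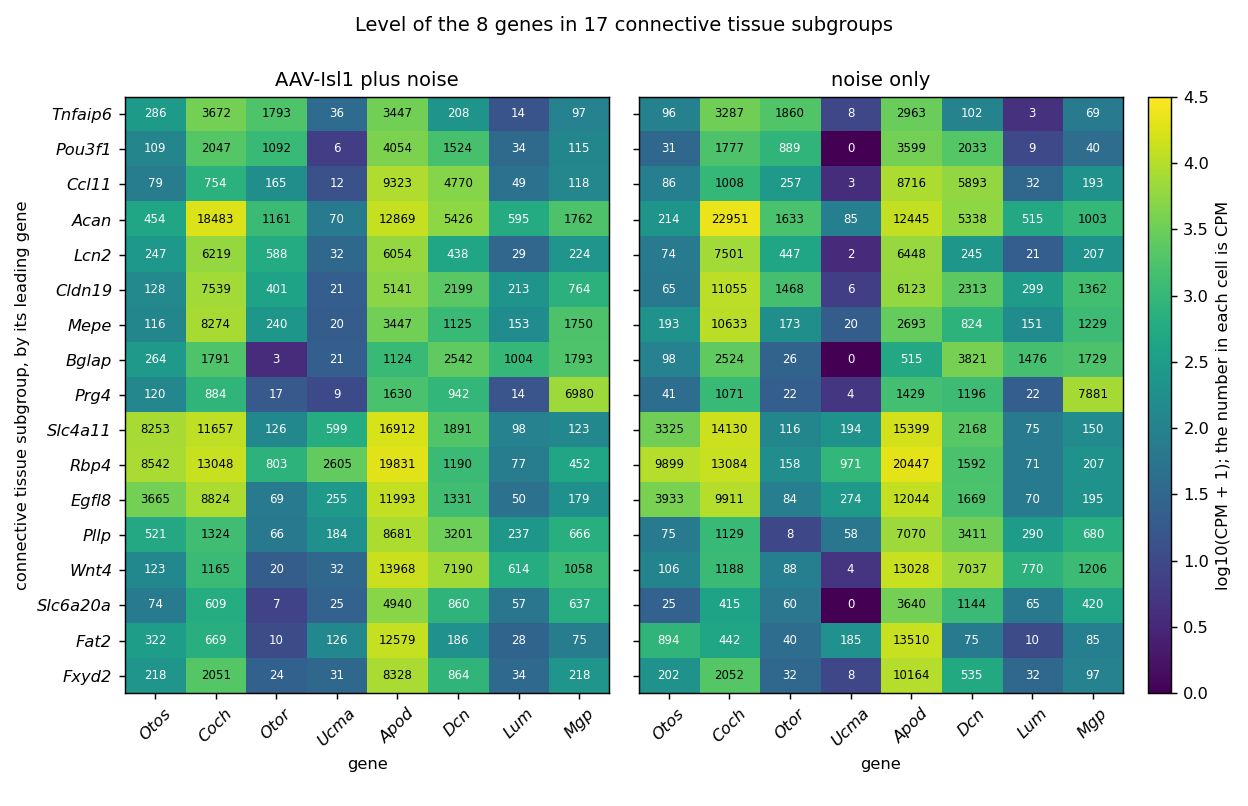
Level of each of the 8 genes (columns) in the 17 connective tissue subgroups (vertical axis, by leading gene) in AAV-Isl1 plus noise cells (left) and noise-only cells (right), as log10(CPM + 1) in colour with the CPM printed. Otos and Ucma are highest in the Rbp4 subgroup in both libraries, followed by the Slc4a11 subgroup in AAV-Isl1 plus noise and the Egfl8 subgroup in noise only. Otor is highest in the Tnfaip6 and Acan subgroups, Coch in the Acan subgroup and Mgp in the Prg4 subgroup.

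Otospiralin RNA was concentrated in 3 subgroups. Most of their cells (90.4% or more of each in either library) lay in a cluster whose leading genes include Slc4a11 (a membrane transporter), Aass and Car3 (a carbonic anhydrase). In the Rbp4 subgroup Otos stood at 8542 CPM in AAV-Isl1 cells and 9899 CPM in noise-only cells (0.863-fold, 0.811 to 0.918). In the Slc4a11 subgroup it stood at 8253 CPM in AAV-Isl1 cells and 3325 CPM in noise-only cells (2.48-fold, 2.36 to 2.61), and in the Egfl8 subgroup at 3665 CPM in AAV-Isl1 and 3933 CPM in noise-only cells (0.932-fold). The Slc4a11 subgroup was the one of the 3 in which the libraries stood apart past 1.5-fold. The remaining 14 subgroups had 74.3 to 521 CPM in AAV-Isl1 cells and 24.99 to 894 CPM in noise-only cells, a range that takes in the erythroid-like cells, at 224 and 93.9 CPM. Without the 5 erythroid-like cells with the most Otos UMIs in each library, that level was 60.0 and 17.2 CPM, below the range. Most Otos UMIs of the Slc4a11 subgroup lay in cells with many of them. At least 20 were found in 68 of 490 AAV-Isl1 cells and 23 of 241 noise-only cells, which held 6162 of 6836 Otos UMIs in AAV-Isl1 and 1333 of 1868 in noise-only cells. The subgroup's cells under 20 Otos UMIs had 986 CPM in AAV-Isl1 and 1091 CPM in noise-only cells. This cut is on the Otos count itself and tends to place any excess above it, so nothing is concluded from the cells below. Of cells thinned to 1000 UMIs, 46.3% of AAV-Isl1 and 45.9% of noise-only cells of this subgroup had an Otos UMI (51.4% and 57.7% without thinning), while cells with at least 1 held 27.1 and 13.4 Otos UMIs on average. Without the 5 cells with the most Otos UMIs in each library, the levels were 6345 and 2378 CPM. This subgroup's cells were shallower in the AAV-Isl1 library, with a median of 1601.5 UMIs against 2228 in the noise-only library. With every cell thinned to 1000 UMIs the ratio was 2.19.

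Some of the subgroup's Otos UMIs came from a second cluster, led by Fat2, Kcnk2 (a potassium channel) and Fxyd2. It held 31 AAV-Isl1 and 8 noise-only cells of the Slc4a11 subgroup, which carried 29.2% and 14.1% of the subgroup's Otos UMIs, at 30581 CPM in AAV-Isl1 cells and 15405 CPM in noise-only cells (1.99-fold, 1.75 to 2.27). The subgroup's 453 AAV-Isl1 and 227 noise-only cells in the Slc4a11-led cluster had 6338 CPM in AAV-Isl1 and 2968 CPM in noise-only cells (2.14-fold, 2.02 to 2.26), so the ratio passed 1.5-fold in the subgroup's cells of either cluster. By whole clusters the picture differed. The Slc4a11-led cluster, which also holds most of the Rbp4 and Egfl8 subgroups, had 6387 CPM in AAV-Isl1 and 4803 CPM in noise-only cells (1.33-fold, within 1.5-fold). The Fat2-led cluster had 2902 CPM in AAV-Isl1 and 470 CPM in noise-only cells (6.17-fold, 5.56 to 6.87). In it the 31 AAV-Isl1 and 8 noise-only cells of the Slc4a11 subgroup held 1995 and 264 Otos UMIs. The Fat2 subgroup, with 97.0% of its cells in that cluster, went the other way. It supplied 3.54 CPM of the Otos level over all kept cells in AAV-Isl1 and 10.6 CPM in noise only. These came from 1.10% and 1.19% of the UMIs of each library.

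Ucma followed the same subgroups at lower levels. It reached 2605 CPM in AAV-Isl1 cells and 971 CPM in noise-only cells of the Rbp4 subgroup (2.68-fold, 2.27 to 3.18) and 599 CPM in AAV-Isl1 and 194 CPM in noise-only cells of the Slc4a11 subgroup (3.09-fold, 2.504 to 3.83). In the Rbp4 subgroup Ucma was seen in 55.7% of AAV-Isl1 and 22.6% of noise-only cells after thinning (44.2% and 21.6% without). It was seen in 1.53% and 0.962% of thinned erythroid-like cells, whose median depth was 1994 and 2369 UMIs against 815 and 767 in the subgroup. Cells under 1000 UMIs cannot be thinned. The subgroup's thinned cells were thus 88 of 249 in AAV-Isl1 and 62 of 194 in noise only. Thus Ucma differed there both in the share of cells and in the level, while the Otos ratio in the same cells lay between 0.701 and 1.01 under stricter filters, thinning and without the 5 highest cells. In the Slc4a11 subgroup 5 cells held 60 of the 109 noise-only Ucma UMIs, and without the 5 highest cells of each library the levels were 490 and 90.1 CPM, a ratio of 5.45. The Egfl8 subgroup had 255 CPM in AAV-Isl1 cells and 274 CPM in noise-only cells, with no difference beyond counting error. Of AAV-Isl1 connective tissue cells with at least 2 Ucma UMIs per 1000, 65 of 127 also had 2 Otos UMIs, and so did 15 of 37 noise-only cells, where 8.12% and 5.28% of all thinned connective tissue cells had 2 Otos UMIs. In the Slc4a11 subgroup 6.49% of 3499 genes were at least 1.5-fold higher in AAV-Isl1 cells and 6.46% lower, and 2 of 8 members were higher (Otos and Ucma) and none lower. In the Rbp4 subgroup, where 11.0% of 1095 genes were higher and 16.7% lower, 3 of the 7 members with at least 50 UMIs over both libraries were higher, and none was lower. They were Ucma, Otor (803 CPM in AAV-Isl1 and 158 CPM in noise-only cells, from 220 and 29 UMIs) and Mgp (452 CPM in AAV-Isl1 and 207 CPM in noise-only cells).

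Otoraplin RNA was highest in the Tnfaip6 subgroup, whose cluster was led by Emilin2, Tnfaip6 (a hyaluronan-binding secreted protein) and Osr2, at 1793 CPM in AAV-Isl1 cells and 1860 CPM in noise-only cells (0.964-fold, 0.882 to 1.05). The Acan subgroup, named for the proteoglycan aggrecan, came next in the noise-only library, with 1161 CPM in AAV-Isl1 cells and 1633 CPM in noise-only cells (0.711-fold, 0.635 to 0.795). Neither ratio passed 1.5-fold, unlike the ratio over all cells. The Cldn19 subgroup did pass it, with 401 CPM in AAV-Isl1 and 1468 CPM in noise-only cells (0.274-fold, 0.217 to 0.343). There 5 cells held 166 of the 250 noise-only Otor UMIs. The Ccl11 subgroup had 165 CPM in AAV-Isl1 and 257 CPM in noise-only cells (0.642-fold). Otor was higher in AAV-Isl1 cells of other subgroups, such as Lcn2 (1.32-fold), Pou3f1 (1.23-fold) and, as given above, Rbp4. After thinning, 66.3% of AAV-Isl1 and 68.6% of noise-only cells of the Tnfaip6 subgroup had an Otor UMI (63.3% and 68.1% without), against 2.36% and 3.85% of erythroid-like cells. The thinned cells of the Tnfaip6 subgroup were 98 of 354 in AAV-Isl1 and 488 of 816 in noise only. Of the 8 members 4 were at least 1.5-fold higher in AAV-Isl1 cells of this subgroup, where 6.14% of 4166 genes were higher. These were Otos (286 CPM in AAV-Isl1 and 95.8 CPM in noise-only cells), Dcn (208 CPM in AAV-Isl1 and 102 CPM in noise-only cells), Ucma (13 UMIs in AAV-Isl1 and 10 in noise-only cells) and Lum (5 UMIs in AAV-Isl1 and 4 in noise-only cells). Ucma and Lum were under the 50 UMIs asked of the genes counted. Each of the 4 was far below its highest subgroup there, and none of the 8 was lower (8.76% of genes were). Dcn and Lum were below their erythroid-like level in both libraries (344 and 205 CPM for Dcn, 31.2 and 21.5 CPM for Lum). Otos and Ucma were little above theirs (224 and 93.9 CPM for Otos, 30.1 and 7.70 CPM for Ucma). Dcn and Lum stayed below without the 5 erythroid-like cells with the most UMIs of the gene. Otos and Ucma were then further above. Without those cells the erythroid-like level was 60.0 CPM in AAV-Isl1 and 17.2 CPM in noise-only cells for Otos. For Ucma it was 11.7 and 0 CPM.

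Cochlin RNA was found over more subgroups than Otos, Ucma or Otor. It was highest in the Acan subgroup, with 18483 CPM in AAV-Isl1 cells and 22951 CPM in noise-only cells (0.805-fold, 0.783 to 0.828). The Rbp4 subgroup had 13048 CPM in AAV-Isl1 and 13084 CPM in noise-only cells (0.997-fold) and the Slc4a11 subgroup 11657 CPM in AAV-Isl1 and 14130 CPM in noise-only cells (0.825-fold). The Egfl8 subgroup had 8824 CPM in AAV-Isl1 and 9911 CPM in noise-only cells (0.890-fold). The Mepe subgroup, named for a bone matrix gene, had 8274 CPM in AAV-Isl1 and 10633 CPM in noise-only cells (0.778-fold), and the Lcn2 subgroup 6219 CPM in AAV-Isl1 and 7501 CPM in noise-only cells (0.829-fold). The Cldn19 subgroup had 7539 CPM in AAV-Isl1 and 11055 CPM in noise-only cells (0.682-fold, 0.641 to 0.726), the ratio nearest to the 1.5-fold limit among these 7. They were the 7 subgroups with the most Coch in either library, and none passed 1.5-fold. At the low end, the Ccl11 subgroup, from the same cluster as the Tnfaip6 subgroup, had 754 CPM in AAV-Isl1 and 1008 CPM in noise-only cells. In the Acan subgroup 2 of 8 members were higher past 1.5-fold, against 4.46% of 3120 genes. They were Otos at 454 CPM in AAV-Isl1 and 214 CPM in noise-only cells and Mgp at 1762 CPM in AAV-Isl1 and 1003 CPM in noise-only cells. None of the 8 was lower there, against 4.97% of genes.

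Apod exceeded 1000 CPM in AAV-Isl1 cells of every one of the 17 subgroups. The Bglap subgroup, led by the osteoblast gene for osteocalcin, was the lowest, with 1124 CPM in AAV-Isl1 cells and 515 CPM in noise-only cells. Both values lay below those of erythroid-like cells, 1220 and 669 CPM. Without the 5 erythroid-like cells with the most Apod UMIs in each library, that level was 1069 and 427 CPM, below the Bglap subgroup. The highest level was in the Rbp4 subgroup, at 19831 CPM in AAV-Isl1 cells and 20447 CPM in noise-only cells (0.970-fold). Outside connective tissue, Apod reached 3878 CPM in AAV-Isl1 and 3560 CPM in noise-only cells of an unnamed cluster led by Klk6 and the myelin gene Mog, with 142 and 92 cells.

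The proteoglycans followed other subgroups. Dcn was highest in the Wnt4 subgroup, from a cluster led by Slc6a13 and Slc22a2 (membrane transporters), with 7190 CPM in AAV-Isl1 cells and 7037 CPM in noise-only cells (1.02-fold, 0.970 to 1.08). The Acan subgroup had 5426 CPM in AAV-Isl1 and 5338 CPM in noise-only cells and the Ccl11 subgroup 4770 CPM in AAV-Isl1 and 5893 CPM in noise-only cells. Dcn thus was nearly level between the libraries in 2 of its 3 highest subgroups. Lum was highest in the Bglap subgroup, with 1005 CPM in AAV-Isl1 cells and 1476 CPM in noise-only cells (0.681-fold, 0.594 to 0.779), and next in the Wnt4 subgroup, with 614 CPM in AAV-Isl1 and 770 CPM in noise-only cells (0.798-fold). In the Wnt4 subgroup 6.43% of 2722 genes were higher past 1.5-fold and 6.02% lower. Of the 8 members 1 was higher and 1 lower, both under 50 UMIs. Ucma had 26 UMIs in AAV-Isl1 and 1 UMI in noise-only cells (8.84-fold, 1.45 to 362), and Otor had 16 and 24 UMIs (0.227-fold, 0.113 to 0.444). Although Dcn and Lum are neighbours in the genome, they did not share 1 ranking, since the Ccl11 subgroup with much Dcn had 49.3 and 32.3 CPM of Lum. Of cells with at least 2 Lum UMIs per 1000, 101 of 106 in AAV-Isl1 and 124 of 167 in noise-only connective tissue also had 2 Dcn UMIs. Among all thinned connective tissue cells, 37.4% in AAV-Isl1 and 33.45% in noise only had 2 Dcn UMIs.

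Matrix Gla protein RNA was highest in another subgroup. The Prg4 subgroup, led by the gene for the joint lubricant lubricin and by Slc47a1 and Penk, held 47.1% of all Mgp UMIs of the AAV-Isl1 library and 44.9% of the noise-only library. Its Mgp level was 6980 CPM in AAV-Isl1 cells and 7881 CPM in noise-only cells (0.886-fold, 0.859 to 0.913). Mgp was also found outside connective tissue, with 2077 CPM in AAV-Isl1 and 1928 CPM in noise-only pericyte or smooth muscle-like cells and 556 CPM in AAV-Isl1 and 618 CPM in noise-only endothelial-like cells, both above the 269 and 451 CPM of erythroid-like cells. In the Prg4 subgroup 2 of 8 members were higher, against 3.95% of 6094 genes, and 1 was lower, against 2.86%. The higher ones were Otos at 120 CPM in AAV-Isl1 and 41.0 CPM in noise-only cells and Ucma with 12 and 4 UMIs, and the lower one was Lum with 18 and 21 UMIs. All 3 were at or below their erythroid-like level in the same library, although Otos was above it in both libraries without the 5 highest erythroid-like cells (60.0 and 17.2 CPM), and Ucma and Lum were under 50 UMIs.

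The subgroups took different shares of the 2 libraries. The Tnfaip6 subgroup, the main source of Otor, made up 354 AAV-Isl1 cells (1.63%) and 816 noise-only cells (4.35%), a share ratio of 0.374 (0.330 to 0.425). The Acan subgroup made up 2.02% of AAV-Isl1 and 3.26% of noise-only cells (0.619-fold). In the other direction the Slc4a11 subgroup made up 2.25% of AAV-Isl1 and 1.28% of noise-only cells (1.75-fold). The Prg4 subgroup made up 3.28% of AAV-Isl1 and 1.91% of noise-only cells (1.72-fold), and the Wnt4 subgroup 3.56% of AAV-Isl1 and 0.965% of noise-only cells (3.69-fold). The Rbp4 subgroup had nearly equal shares of cells, 1.15% of AAV-Isl1 and 1.03% of noise-only cells. Its shares of UMIs, the unit used in the weighting below, were 0.759% in AAV-Isl1 and 0.545% in noise only. By UMIs the Slc4a11 subgroup held 2.29% and 1.67%, the Prg4 subgroup 3.52% and 2.90%, and the Tnfaip6 subgroup 0.997% and 3.60%. The clusters were built without the 8 genes, so these shares do not rest on them, but how much of each structure entered the 2 dissections cannot be told apart from the treatment.

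**Figure D2:**
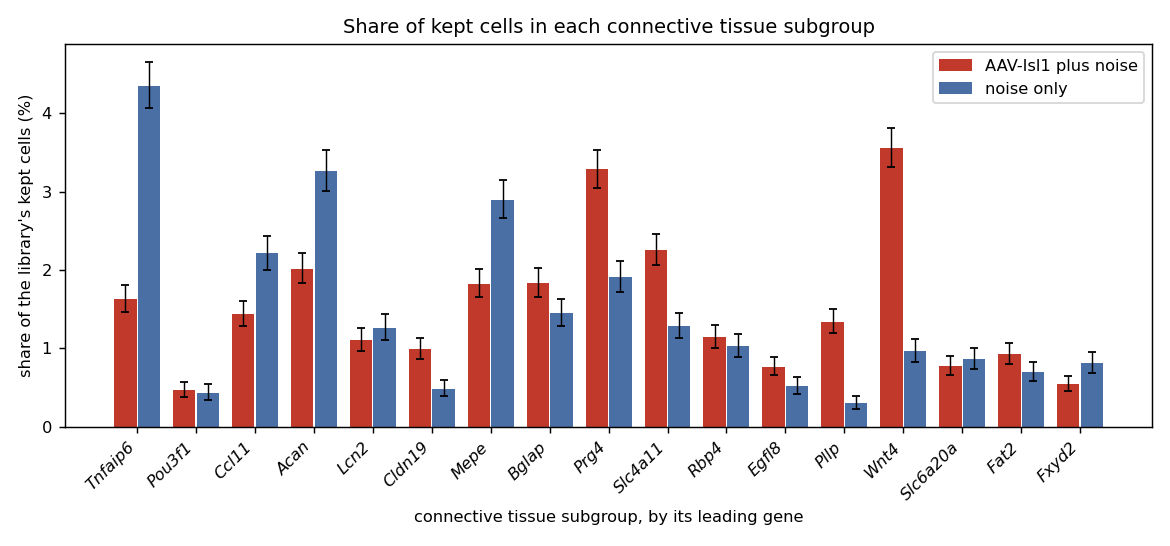
Share of all kept cells (vertical axis, percent) in each connective tissue subgroup (horizontal axis, by leading gene) in the AAV-Isl1 plus noise library (left bar) and the noise-only library (right bar), with exact Clopper-Pearson 95% intervals for counting error. The Tnfaip6 subgroup stands at 1.63% and 4.35% and the Wnt4 subgroup at 3.56% and 0.965%.

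In 4 subgroups, led by Cldn19, Pou3f1, Pllp and Egfl8, glia genes stood among the 10 leading genes. A list of glia genes made up 0.985% to 1.43% of their UMIs in AAV-Isl1 cells and 0.834% to 1.13% in noise-only cells, against 0.0732% to 0.406% and 0.0415% to 0.252% in the other subgroups. Without these 4 the ratios over all kept cells were 1.95 for Otos, 2.46 for Ucma and 0.482 for Otor, against 1.86, 2.41 and 0.498 with them.

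The question that the shares raise is how much of each ratio goes with the mix of cells. Levels of the AAV-Isl1 cells were therefore weighted by the noise-only share of UMIs of each cluster, which removes differences in cluster size but has no interval. For Otor this gave a ratio of 0.787 with 26 clusters and 0.919 with the connective tissue clusters split into subgroups, where the plain ratio was 0.498. Turned round, noise-only levels at AAV-Isl1 subgroup shares gave an Otor ratio of 0.568 from the shares alone. At matched subgroup shares Otor was thus within 1.5-fold, although with thinned cells it stayed at 0.661 at matched cluster shares. For Otos the ratio was 1.78 with clusters and 1.61 with subgroups, and the shares alone gave 1.09 and 1.14. For Ucma it was 2.21 and 2.05, with 1.03 and 1.08 from the shares alone. Both calls ended when the erythroid-like level of the same library was subtracted, at 1.35 for Otos and 1.39 for Ucma at matched cluster shares, while Mgp then stood at 4.41. A few cells made that level, since 5 erythroid-like cells held 311 of 424 Otos UMIs in AAV-Isl1 and 50 of 61 in noise-only cells, and 35 of 57 Ucma UMIs in AAV-Isl1 and all 5 in noise-only cells. Without the 5 highest cells of each gene in the subtracted level, the ratios were 1.64 for Otos, 1.71 for Ucma and 1.04 for Mgp. With nothing subtracted, Coch had 0.874 with clusters and 0.927 with subgroups. Apod (1.19 and 1.16), Dcn (1.15 and 1.03), Lum (0.939 and 0.861) and Mgp (1.03 and 1.03) were also within 1.5-fold. Under the 15 alternatives run at matched shares, Coch passed 1.5-fold downward in 3 (lowest 0.547) and Lum in 1 (0.654). At noise-only cluster shares 2 of 8 members were higher past 1.5-fold and none was lower, against 3.25% and 1.26% of 15595 genes, and with subgroups the counts were again 2 and 0, against 3.24% and 1.33%. The median log2 ratio of the 8 was 0.12 with clusters and 0.04 with subgroups, against -0.002 and -0.005 over all genes.

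**Figure D3:**
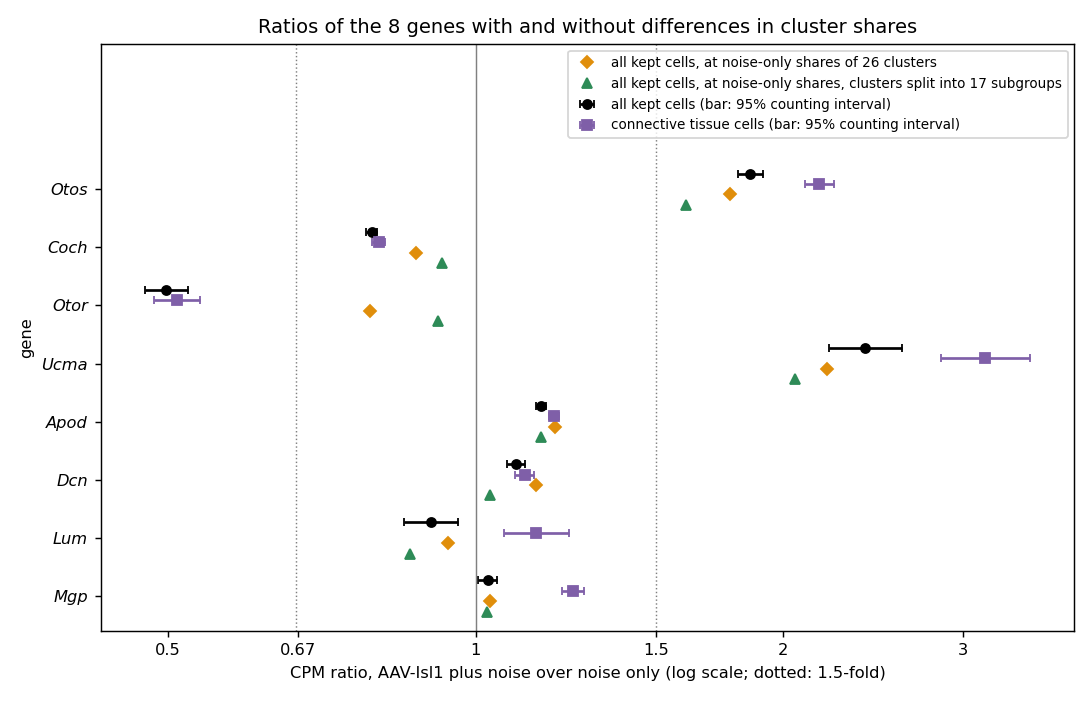
CPM ratio of AAV-Isl1 plus noise to noise only (horizontal axis, log scale) for each of the 8 genes (vertical axis): circles for all kept cells and squares for connective tissue cells with 95% counting intervals, diamonds and triangles for all kept cells at noise-only shares of clusters and of clusters split into subgroups. The Otor ratio lies at 0.498 over all cells and at 0.919 with subgroup shares held, while Otos and Ucma stay at 1.61 and 2.05.

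The plot of parts by group shows where these differences sat. Of the Otos level over all kept cells, the Slc4a11 subgroup supplied 189 CPM in the AAV-Isl1 library and 55.6 CPM in the noise-only library, a difference of 134 CPM, and no other group differed by more than 10.8 CPM. For Otor the Tnfaip6 subgroup supplied 17.9 CPM in AAV-Isl1 and 66.9 CPM in noise-only cells, and the Acan subgroup 12.3 and 32.1 CPM. For Ucma the Rbp4 subgroup supplied 19.8 and 5.29 CPM and the Slc4a11 subgroup 13.7 and 3.24 CPM. For Coch the Acan subgroup supplied 196 and 450 CPM, the largest gap of any group for that gene.

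**Figure D4:**
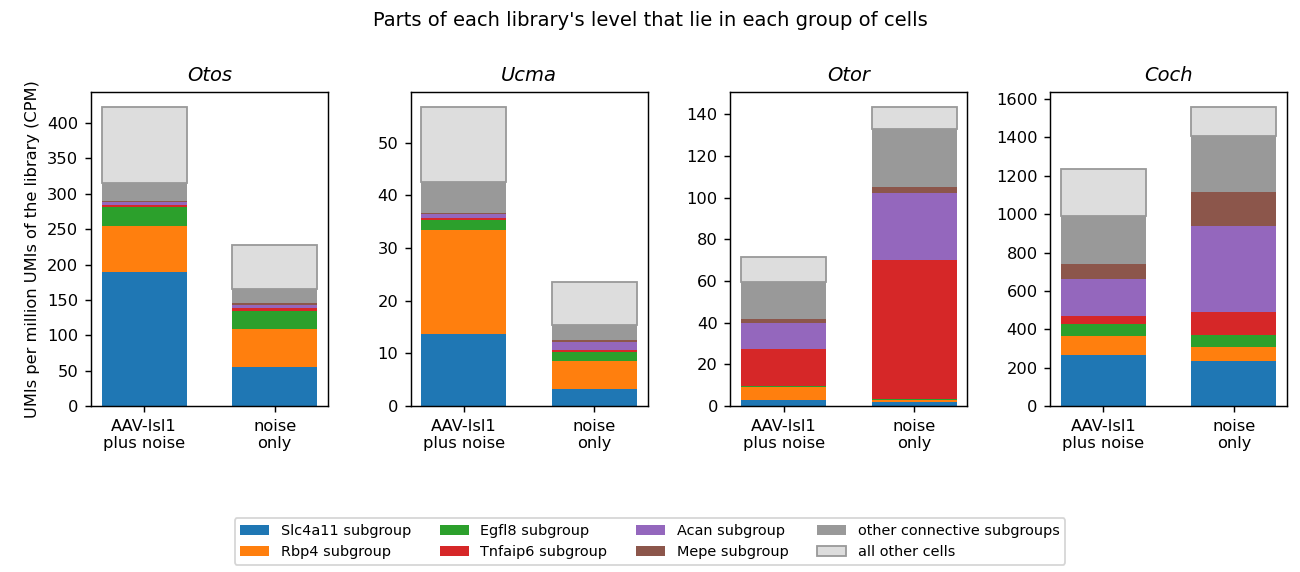
Level of Otos, Ucma, Otor and Coch over all kept cells (vertical axis, UMIs per 1000000 UMIs of the library), stacked by the group of cells that held the UMIs, for the AAV-Isl1 plus noise library (left bar) and the noise-only library (right bar). The Slc4a11 subgroup supplies 189 and 55.6 CPM of Otos, and the Tnfaip6 subgroup 17.9 and 66.9 CPM of Otor.

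Within the pooled connective tissue cells, which differ in their mix, Otos had 1528 CPM in AAV-Isl1 cells and 705 CPM in noise-only cells (2.17-fold), and Ucma had 206 CPM in AAV-Isl1 and 65.3 CPM in noise-only cells (3.15-fold). Otor had 288 CPM in AAV-Isl1 and 564 CPM in noise-only cells (0.510-fold) and Coch 4805 CPM in AAV-Isl1 and 5981 CPM in noise-only cells (0.803-fold). Apod (1.19-fold), Dcn (1.12-fold), Lum (1.15-fold) and Mgp (1.24-fold) were within 1.5-fold. Here 2 of 8 members were higher and 1 lower, against 4.69% and 2.72% of 11744 genes, and the median log2 ratio was 0.22, against 0.00 over all genes. Connective tissue cells had a median of 1083 UMIs in the AAV-Isl1 library and 1306.5 in the noise-only library. Shares of cells followed the levels for 3 genes: after thinning, Otos was seen in 14.3% of AAV-Isl1 and 10.3% of noise-only connective tissue cells, Ucma in 6.09% and 2.54%, and Otor in 8.50% and 17.97%. Without thinning these were 15.2% and 13.3%, 6.30% and 3.34%, and 11.6% and 21.4%. The Otos, Ucma and Otor shares in thinned erythroid-like cells were 5.27% and 3.85%, 1.53% and 0.962%, and 2.36% and 3.85%.

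All 8 genes were also found in 7 classes outside connective tissue, at lower levels than in connective tissue cells. Whether these cells make them or hold free RNA of the suspension was not tested. In 7 classes (erythroid-like, T or NK cell-like with B cell markers, macrophage-like, neuron-like, stria intermediate-like, stria marginal-like, Schwann or satellite glia-like), Coch ranged from 69.9 to 689 CPM in AAV-Isl1 cells and from 24.6 to 417 CPM in noise-only cells. Apod ranged from 126 to 1220 CPM in AAV-Isl1 and from 43.0 to 669 CPM in noise-only cells, and Otos from 33.9 to 262 CPM in AAV-Isl1 and from 8.13 to 182 CPM in noise-only cells. The low end of each range was the deep neuron-like class. Otos, Coch and Apod were higher in the AAV-Isl1 library in 7 of 7 classes, Ucma, Dcn and Lum in 6 of 7, Mgp in 5 of 7 and Otor in 4 of 7. Each class was also shallower in the AAV-Isl1 library. The median was 6830 against 10735 UMIs in neuron-like cells and 664 against 707 in Schwann or satellite glia-like cells. Whether depth made these ratios was not tested. Erythroid-like cells, which were 859 in the AAV-Isl1 and 232 in the noise-only library, had 689 and 417 CPM of Coch, 1220 and 669 CPM of Apod and 344 and 205 CPM of Dcn. They include 55 AAV-Isl1 and 8 noise-only cells of a deeper cluster whose leading genes are 4 globin genes and genes known from neurons, such as Slc17a6 (a vesicular glutamate transporter) and Celf4. Without that cluster the erythroid-like level of Coch was 774 CPM in AAV-Isl1 and 481 CPM in noise-only cells, and that of Otos 256 CPM in AAV-Isl1 and 108 CPM in noise-only cells. With it left out of the subtracted level, the ratios at matched cluster shares were 1.24 for Otos and 1.27 for Ucma. Set against Apod, the other genes varied between classes. Per 100 Apod UMIs there were 42.9 to 80.8 Coch UMIs in the 7 classes of the AAV-Isl1 library, against 56.1 in its connective tissue cells, and 57.2 to 81.6 in the noise-only library, all below the 83.2 of its connective tissue cells. For Dcn these were 18.3 to 32.7 against 27.5 in the AAV-Isl1 library and 12.5 to 40.1 against 29.3 in the noise-only library. Otos was above the connective tissue ratio in each of the 7 classes, with 18.4 to 38.1 against 17.8 per 100 Apod UMIs in the AAV-Isl1 library and 14.02 to 44.3 against 9.81 in the noise-only library.

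**Figure D5:**
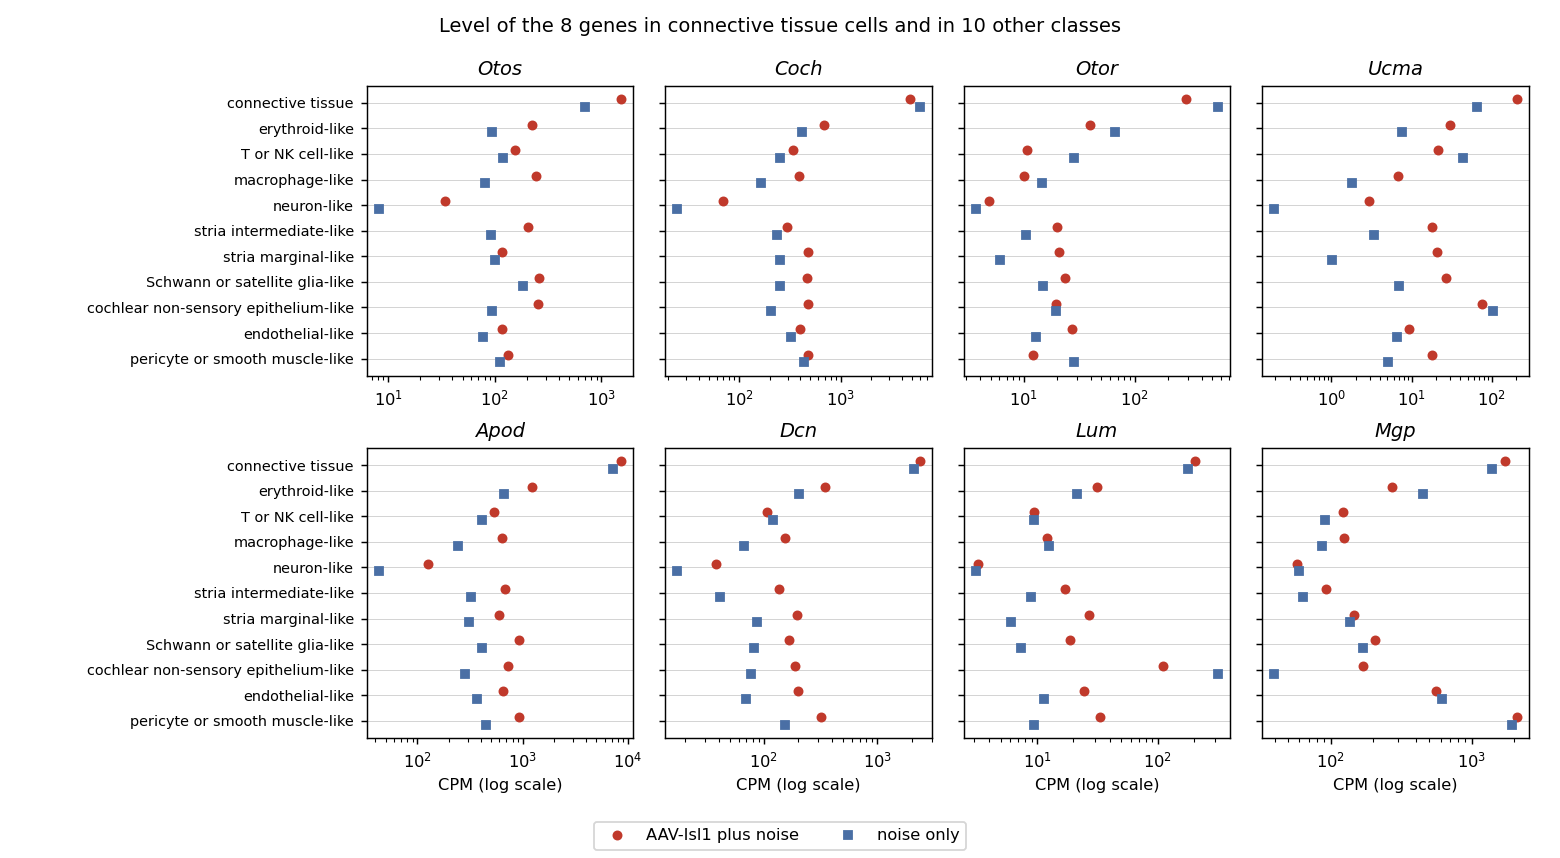
Level of each of the 8 genes (horizontal axes, CPM on a log scale) in connective tissue cells and 10 other classes of cells (vertical axis), with circles for AAV-Isl1 plus noise and squares for noise only. Connective tissue cells are highest for 7 of the 8 genes in the AAV-Isl1 library, Mgp is higher in pericyte or smooth muscle-like cells, and in the noise-only library Lum and Ucma are highest in cochlear non-sensory epithelium-like cells.

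Over all cells outside connective tissue, 5 of 8 members were at least 1.5-fold higher in the AAV-Isl1 library, against 6.24% of 15152 genes, and none was lower, against 2.84%. These were Dcn (138 CPM in AAV-Isl1 and 62.0 CPM in noise-only cells, 2.23-fold), Apod (583 CPM in AAV-Isl1 and 305 CPM in noise-only cells, 1.91-fold), Ucma (18.2 CPM in AAV-Isl1 and 10.8 CPM in noise-only cells, 1.68-fold), Otos (136 CPM in AAV-Isl1 and 81.0 CPM in noise-only cells, 1.68-fold) and Coch (306 CPM in AAV-Isl1 and 198 CPM in noise-only cells, 1.54-fold). Coch was lower in connective tissue cells and higher outside them. An erythroid-like AAV-Isl1 cell held 184 Otos UMIs of its 2399, a Schwann or satellite glia-like noise-only cell held 100 of its 953, and a hair cell-like noise-only cell held 134 Coch UMIs of its 2580. Lum and Ucma had a further source in cochlear non-sensory epithelium-like cells. Lum stood there at 111 CPM in AAV-Isl1 cells and 317 CPM in noise-only cells (0.351-fold, 0.289 to 0.425), and these cells held 6.80% of Lum UMIs in AAV-Isl1 and 24.4% in noise-only cells. Ucma stood at 76.6 CPM in AAV-Isl1 cells and 105 CPM in noise-only cells (0.733-fold, 0.563 to 0.948), opposite in direction to the Rbp4 and Slc4a11 subgroups.

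By the likeness of log2(CPM + 10) over 50 cluster profiles (clusters of at least 50 cells in each library), several members had each other among their nearest genes. Car3 was the gene most like Otos (r = 0.84), Coch (r = 0.88) and Ucma (r = 0.85) among 12323 genes. Ucma was the third most like Otos (r = 0.77), Apod and Coch each ranked next after the top gene for the other (r = 0.87), and Dcn did so for Lum (r = 0.75). The most like Otor was Wif1, a secreted Wnt inhibitor gene (r = 0.87), the most like Apod was Pantr1 (r = 0.87), the most like Dcn was Cyp1b1 (r = 0.89), the most like Lum was Cemip (r = 0.83) and the most like Mgp was C1qtnf7 (r = 0.83). The profiles of a library share its depth and any free RNA, so these values describe the 2 libraries only.

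Related genes were counted in pooled connective tissue cells, where 4.69% of genes were higher and 2.72% lower past 1.5-fold. Of small leucine-rich proteoglycans other than Dcn and Lum, 1 of 10 with at least 20 UMIs was higher and none lower. That was Podn, at 5.10 CPM in AAV-Isl1 and 3.16 CPM in noise-only cells, while the more abundant Ogn (osteoglycin) had 441 CPM in AAV-Isl1 and 495 CPM in noise-only cells and Bgn (biglycan) 171 CPM in AAV-Isl1 and 191 CPM in noise-only cells. Of vitamin K cycle and mineralization genes, 1 of 13 was higher, Gas6 at 34.2 CPM in AAV-Isl1 and 22.7 CPM in noise-only cells, and 1 lower, Sost (sclerostin, an osteocyte Wnt inhibitor) at 5.90 CPM in AAV-Isl1 and 18.6 CPM in noise-only cells. The most abundant of the list, Spp1 (osteopontin), had 2447 CPM in AAV-Isl1 and 2773 CPM in noise-only cells, and Bglap had 705 CPM in AAV-Isl1 and 791 CPM in noise-only cells, both within 1.5-fold. Of collagens, 1 of 17 was higher, Col14a1 at 37.8 CPM in AAV-Isl1 and 18.6 CPM in noise-only cells, and the median log2 ratio was 0.25. Of fibrocyte transcription factor and ion transport genes, 1 of 21 was higher (Tbx15, 4.69 CPM in AAV-Isl1 and 2.27 CPM in noise-only cells) and 1 lower (Fxyd2, a sodium pump regulator, 97.8 CPM in AAV-Isl1 and 151 CPM in noise-only cells). Car3 had 1253 CPM in AAV-Isl1 and 969 CPM in noise-only cells (1.29-fold) and Slc4a11 574 CPM in AAV-Isl1 and 496 CPM in noise-only cells (1.16-fold), where Otos and Ucma had ratios of 2.17 and 3.15. Of lipocalins and lipid carriers, 1 of 8 was higher, Ptgds (prostaglandin D synthase), at 71192 CPM in AAV-Isl1 and 44978 CPM in noise-only cells (1.58-fold), and Apoe had 6776 CPM in AAV-Isl1 and 8835 CPM in noise-only cells (0.767-fold). Of elastic fibre and matricellular genes, 2 of 24 were higher (Fbln2, Tnc) and 4 lower (Fbn2, Emilin2, Thbs4, Comp). Emilin2, a leading gene of the cluster that holds the Tnfaip6 subgroup, had 387 CPM in AAV-Isl1 and 903 CPM in noise-only cells (0.429-fold).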

How the data were processed

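Cochlear cells were captured with a 10x 3' v3.1 kit, per the labels' protocols, and the authors deposited UMI counts per gene and barcode made with Cell Ranger 5.0 and STAR on mm10 (GRCm38), per the submitters' processing notes; the file headers give Cell Ranger 5.0.1. The notes also name Seurat 3.2.2. No annotation of cells was used. Here the filter asked for 300 or more genes per cell and no more than 20% of UMIs from mitochondrial genes, which passed 22672 AAV-Isl1 and 19953 noise-only cells. Scrublet's automatic threshold called 0 doublets in either library, so a score threshold of 0.1952 was chosen after that and used in both, which removed 936 (4.13%) AAV-Isl1 and 1196 (5.99%) noise-only cells. Clustering (scanpy 1.11.5, Leiden resolution 1) used 3125 variable genes without the 8 members. Clusters were named "X-like" from 3 or more markers. The joining of 4 marker lists into connective tissue, the sub-clustering, and the choice of 6 subgroups compared gene by gene came after clusters or values had been seen. The members and lists were chosen with earlier results of these data known, and the rule for named genes took all 8 members, the 3 genes most like each, the leading genes of connective tissue clusters and the 4 most abundant genes of each list. List genes past 1.5-fold were named after their values were seen.

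Counts were summed per library and group of cells. Ratios have exact conditional binomial intervals and shares Clopper-Pearson intervals at 95%; they cover counting error only, since UMIs of 1 library are no replicates. No test was made with 1 library a group. Genes needed 50 UMIs over both libraries to be counted in a background, and a list gene 20. For shares, cells were thinned to 1000 UMIs, which kept 11944 AAV-Isl1 and 9857 noise-only cells and left out 9792 and 8900 shallower ones. The ratio step was run on simulated counts that had counting error only, with no further spread between cells. The weighting step was run on simulated shares with the same ratio in every group. These runs check the arithmetic and cannot show how the intervals or the weighting behave in these data. Alternatives were stricter filters, no doublet removal, other denominators, edgeR 4.0.16 and DESeq2 1.42.0 scaling, thinning, leaving out the 5 highest cells, subtraction of the erythroid-like level, other resolutions and members kept in the clustering; the split into subgroups, leaving out glia-led subgroups and 2 narrower sets of erythroid-like cells were added after seeing the data. Software was Python 3.11.15, scipy 1.17.1, numpy 2.4.6 and R 4.3.3.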

Additional observations from a re-analysis of the deposited data

Results flagged for a closer look

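Coch had a ratio of AAV-Isl1 plus noise over noise only of 0.803 in connective tissue cells and 1.54 in all other cells, on opposite sides of 1 beyond both counting intervals. Lum had 1.15 in connective tissue cells and 0.673 in all other cells, and Mgp had 1.24 and 0.879. For these 3 genes the difference between the 2 sets of cells was not tested, since each group is 1 library.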

How the results depend on the processing

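No paired analysis was possible because tissue of 5 mice was pooled into 1 library per group. No ratio past 1.5-fold changed direction under any alternative run. Over all kept cells, 1 of 8 members was lower; this became 2 with thinned cells and 3 with the erythroid-like level subtracted. That subtraction was also run without the erythroid-like cluster that has neuronal leading genes and without the 5 highest erythroid-like cells of each gene, both chosen after seeing the data. They gave 3 and 3 lower, and 1 and 2 higher. With the plain subtraction 2 were higher, the same count as in the main run, but these were Ucma and Mgp. Otos was then under 1.5-fold. Mgp stood at 4.365, from a noise-only level of 509 CPM less an erythroid-like level of 451 CPM. At matched cluster shares, 2 were higher and 0 lower. With the subtraction 1 was higher (Mgp) and 1 lower (0 and 2 without that cluster, 2 and 1 without the 5 cells). With thinning 1 was lower. The median log2 ratio of the members over all kept cells, 0.08, was -0.034 with stricter filters, -0.032 with thinning and -0.37 with the subtraction (-0.47 without that cluster, -0.42 without the 5 cells). At matched cluster shares the median, 0.12, was 0.19 with no doublets removed, -0.15 with the subtraction (-0.30 without that cluster, -0.32 without the 5 cells), 0.035 with members kept in the clustering and 0.041 with subgroups. In connective tissue the median, 0.22, was 0.16 with stricter filters, 0.13 with thinning and 0.16 with the subtraction (0.16 without that cluster, 0.13 without the 5 cells). Mgp gave no ratio over all kept cells or at matched shares without that cluster, as its noise-only level was then under the erythroid-like one. The cause was not tested. The ratio in connective tissue ranged from 2.09 to 2.83 for Otos, 2.97 to 3.86 for Ucma and 0.373 to 0.519 for Otor. Over all kept cells it ranged from 1.39 to 2.13, 1.59 to 2.51 and 0.360 to 0.506. Coch and Lum, within 1.5-fold in the main run over all kept cells, passed it downward in 3 and 4 of 11 alternatives. Their lowest ratios were 0.427 and 0.595. TMM and median-of-ratios scaling moved log2 ratios by at most 0.03. Depth limits members with few UMIs, chiefly Ucma and Lum in small subgroups.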
